A study of Homo sapiens with 18 samples.

Results

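Aldehyde dehydrogenases oxidize aldehydes to carboxylic acids with NAD or NADP as the cofactor. They clear reactive aldehydes made from alcohol, lipids and amino acids, and some of them make retinoic acid, the ligand of the retinoic acid receptors, from retinal. In the mammary gland their enzyme activity is widely used as a marker of stem and progenitor cells, and ALDH1A1 and ALDH1A3 are the members most often linked to that activity.

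The 10 genes described here are ALDH1A1, ALDH1A3, ALDH1B1, ALDH2, ALDH3A1, ALDH3A2, ALDH3B1, ALDH3B2, ALDH4A1 and ALDH7A1. They belong to a family of 19 human genes and were chosen from earlier results of the knockout-against-WT comparisons of these same data, so their levels are given as a description with no test. Their rows were found by gene symbol and joined by Entrez identifier among 19401 genes listed in any of 3 deposited tables. All 10 were listed in the CBFB table, 8 in the RUNX1 KO1 table and 9 in the RUNX1 KO2 table, and 8 were listed in all of them. Of the 19401 genes, 18526, 18517 and 18117 were listed in the CBFB, KO1 and KO2 tables, and 17252 in all of them.

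RNA was sequenced from untreated MCF10A cells, a non-tumorigenic human mammary epithelial line, kept under 30 passages. The 18 samples fell into 5 groups: CBFB KO (3 samples) with its own WT (3), and RUNX1 KO1 (4) and RUNX1 KO2 (4) with a WT that both shared (4). CBFB and RUNX1 are the non-DNA-binding and DNA-binding subunits of one transcription factor complex. The CBFB KO was 1 clone and the RUNX1 KO 2 clones, made with CRISPR and picked as single-cell colonies, so each knockout group stands for a single clone. Which clone number is KO1 or KO2 is not given. The labels do not say whether the repeats were separate cultures.

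The measurement used here was the mean normalized count of a gene over the KO and WT libraries of a table together. The tables also carry the authors' KO-against-WT comparisons, which were set aside, so the values below have no replicate error and are not assigned to KO or to WT. Pooled means do not check the knockouts: the CBFB gene had means of 897 (CBFB table), 1058 (KO1) and 931 (KO2), and RUNX1 had 1606, 922 and 839. The means of all genes summed to 1.65e+07 to 2.02e+07 per table, and the size factors recovered from genes with a single read ran from 0.562 to 1.29 over the libraries. All of the basal epithelial markers tested that were listed had means of 730 or more. Their list includes CDH1, a marker of epithelial cells in general. The luminal markers FOXA1 (274, 231 and 210 in the CBFB, KO1 and KO2 tables) and ESR1 (77.6, 59.9 and 53.9) were listed while PGR was not. Of the fibroblast markers, COL1A1 had means of 284, 305 and 236 and PDGFRB 3.42, 3.30 and 3.30, and COL1A2 was listed in the CBFB table alone (0.145). Of the immune markers, CD68 had 303, 183 and 161, while PTPRC and CD3E were under 1 where listed. PECAM1 and CDH5, which mark endothelial cells, were under 1 in each.

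ALDH1A3 and ALDH1A1, the ALDH1A enzymes among the 10 members, stood far apart in level. ALDH1A3 had the highest mean of the 10, with 2986 normalized counts (CBFB table), 3726 (KO1) and 3418 (KO2), above 92.8%, 95.6% and 95.5% of the genes listed there. ALDH1A1, which oxidizes retinal as well, rested on a total of 1 read over the 6 libraries of the CBFB table (a mean of 0.254). In the KO2 table ALDH1A1 rested on a total of 1 read over the 8 libraries (0.0970), and it was not listed in the KO1 table. A count of 1 read has an exact Poisson 95% interval of 0.0253 to 5.57 reads, which covers counting error only. A gene left off a table was not read as 0, since KRT14, a basal keratin chosen as the example after its values were seen, had a mean of 9515 in the KO1 table and was missing from the KO2 table.

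ALDH2 and ALDH1B1, the mitochondrial enzymes that oxidize acetaldehyde, were also far apart. ALDH2 rested on a total of 1 read over the 6 CBFB-experiment libraries (a mean of 0.141) and was not listed in either RUNX1 table. ALDH1B1 had means of 1769, 1637 and 1593 in the CBFB, KO1 and KO2 tables.

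The ALDH3 enzymes act on fatty and aromatic aldehydes. ALDH3A2, the fatty aldehyde dehydrogenase of the endoplasmic reticulum, which is mutated in Sjögren-Larsson syndrome, had means of 2762, 2090 and 2024 in the same order of tables. ALDH3A1, a cytosolic enzyme abundant in the cornea and induced by dioxin-like compounds, had means of 79.3, 78.6 and 110. ALDH3B1, which oxidizes medium- and long-chain aldehydes from lipid peroxidation, had means of 75.8, 99.5 and 100.0, and its close relative ALDH3B2 had 5.88, 12.2 and 9.83. Within this subfamily ALDH3A2 therefore carried nearly all of the counts, and ALDH3B2 was the lowest in each table.

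The remaining members belong to amino acid breakdown. ALDH7A1, which oxidizes the semialdehyde formed in lysine breakdown, had means of 1592, 1721 and 1695. ALDH4A1, the mitochondrial enzyme that makes glutamate in proline breakdown, had means of 152, 224 and 239, the lowest in the CBFB table.

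**Figure D1:**
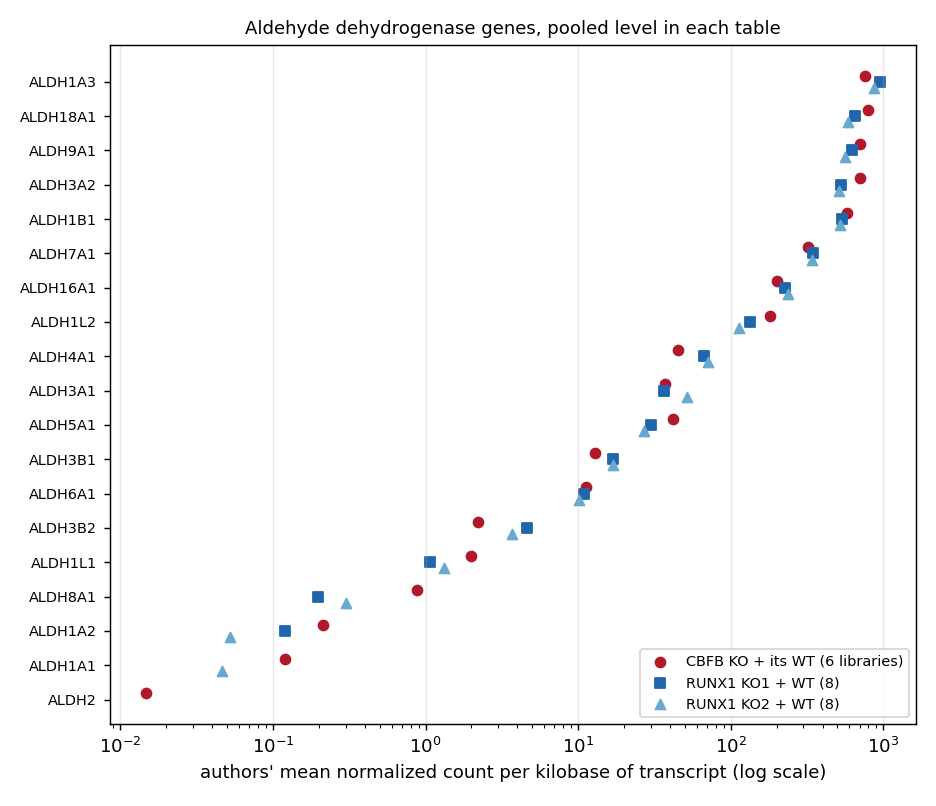
Authors' mean normalized count per kilobase of transcript (x axis, log scale) of the 19 aldehyde dehydrogenase genes (y axis), with 1 point per table in which the gene is listed and no error, since each point is a mean pooled over KO and WT libraries. ALDH1A3 sits at 761 to 949, and ALDH1A1 and ALDH2 sit at the bottom with 1 read per table that lists them.

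To compare genes with each other, means were divided by the length of the longest annotated transcript. On this scale ALDH1A3 was first among the members in every table, at 761 (CBFB table), 949 (KO1) and 871 (KO2) normalized counts per kilobase. In the CBFB table ALDH3A2 (703), ALDH1B1 (577) and ALDH7A1 (321) followed, and then came a step of 7.08-fold down to ALDH4A1 (45.3), ALDH3A1 (37.0), ALDH3B1 (12.9) and ALDH3B2 (2.22). In the KO1 table the same 4 genes led, and ALDH7A1 at 347 was 5.20-fold above ALDH4A1 at 66.7. In the KO2 table that step was 4.81-fold, from 341 to 71.0.

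Some neighbours in the order cannot be separated. ALDH1B1 and ALDH3A2 were 1.004-fold (KO1) and 1.009-fold (KO2) apart in the RUNX1 tables, and ALDH3A2 came before ALDH1B1 when the coding length was used instead. The longest transcripts of ALDH3A1 and ALDH3B1 hold no coding sequence, and ALDH3B1's is 5884 bases against a coding length of 1404, so the level per kilobase of transcript may understate ALDH3B1. Per coding kilobase ALDH3B1 stood at 54.0, 70.9 and 71.2 and ALDH3A1 at 58.4, 57.8 and 81.2, so that their order was reversed in the KO1 table alone.

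ALDH1A3 held 30.9% of the members' summed level per kilobase for CBFB, 38.2% for KO1 and 36.4% for KO2. Of the 9 other family genes, ALDH18A1, which makes a proline precursor, and ALDH9A1, which acts in carnitine synthesis, were the highest per kilobase. ALDH18A1 was above ALDH1A3 in the CBFB table (800 against 761 per kilobase) and below it in the KO1 (649 against 949) and KO2 tables (589 against 871), but per coding kilobase ALDH1A3 was the highest of the family in all of them. ALDH1A2, the remaining ALDH1A enzyme, rested on 5, 4 and 2 reads in the CBFB, KO1 and KO2 tables. As a share of all normalized counts the members summed to 466, 531 and 558 per 1000000, and the whole family to 815, 864 and 893 per 1000000.

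Which members had reads that another gene could share was examined because ALDH3B1 and ALDH3B2 lie on the same chromosome and are close in sequence. Among the 10 members' transcripts with the longest coding sequence, they alone shared any run of 50 bases with another family gene. The 35 shared runs made up 1.28% of those of ALDH3B1 and 1.35% of those of ALDH3B2. The longest identical stretch was 64 bases, coding in both genes, at chr11:68021709-68021772 on the plus strand for ALDH3B1 and chr11:67665384-67665447 on the minus strand for ALDH3B2 (GRCh38), in exon 7 of each transcript. It is shown 5′ to 3′ because a read lying wholly within it could come from either gene, and no base is marked. This search for shared runs was chosen after the levels were seen.
ALDH3B1 and ALDH3B2: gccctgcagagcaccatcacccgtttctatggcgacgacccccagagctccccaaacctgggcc

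ALDH3A1 and ALDH3A2 both lie on chromosome 17, on either side of SLC47A2, and shared no such run with each other. ALDH1A1 and ALDH1B1 lie apart on chromosome 9, ALDH4A1 on chromosome 1, ALDH7A1 on chromosome 5, ALDH2 on chromosome 12 and ALDH1A3 on chromosome 15. ALDH7A1 has 4 annotated pseudogenes, which were not compared, so its level may include or lack reads from them.

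To ask how the levels differed between the clones and experiments, the pooled means of each pair of tables were compared after scaling by the median ratio over the genes whose mean reached 10 on both sides. The 3 pairs needed scale factors of -0.10 (KO2 over KO1), 0.23 (CBFB over KO1) and 0.34 (CBFB over KO2) on the log2 scale, and all ratios below are relative to these. ALDH3B2, ALDH1A1 and ALDH2 failed the filter in at least one table of a pair, which left 7 members in each comparison. Because each side was 1 pooled value, no test could be run.

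Between the RUNX1 tables, which share the WT libraries, the members' pooled means were nearly level except for ALDH3A1. No member (0 of 7) was at least 2-fold apart, against 0.0686% of the 13123 genes compared. Since the same WT libraries stand on both sides, these ratios understate those between the clones, so the 2-fold count does not describe the clones. ALDH1A3 (log2 ratio of KO2 over KO1 -0.02), ALDH3A2 (0.05), ALDH1B1 (0.06), ALDH7A1 (0.08), ALDH3B1 (0.11) and ALDH4A1 (0.19) were within the range that held the middle 90 percent of genes. ALDH3A1 was higher in the KO2 table, at 118 normalized counts after scaling against 78.6 (log2 ratio 0.59), and 0.914% of the genes compared were at least as far from 0.

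The ALDH3A1 ratio can be restated as a difference between the clones. If the shared WT libraries carried the same level in both tables after scaling, KO2 exceeded KO1 by 79.3 normalized counts of ALDH3A1 on the scale of the KO1 table, or by 84.7 when the tables were scaled by their sums. The counting error of the pooled ALDH3A1 means was about 3.99% (KO1) and 3.37% (KO2). Pooled means do not hold the spread between repeats, and the authors' comparisons, which carry an error, were set aside. Whether the clones differed beyond that spread is therefore not stated here. For the other members KO2 exceeded KO1 by 192 (ALDH7A1), 159 (ALDH3A2), 141 (ALDH1B1), 62.8 (ALDH4A1) and 15.4 (ALDH3B1) normalized counts, beside means of 1721, 2090, 1637, 224 and 99.5 in the KO1 table. For ALDH1A3 the difference was -124, and 41.6 when the tables were scaled by their sums. Without scaling, the ratios of ALDH7A1, ALDH3A2 and ALDH1B1 also turned below 0. This calculation was chosen after the values were seen.

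**Figure D2:**
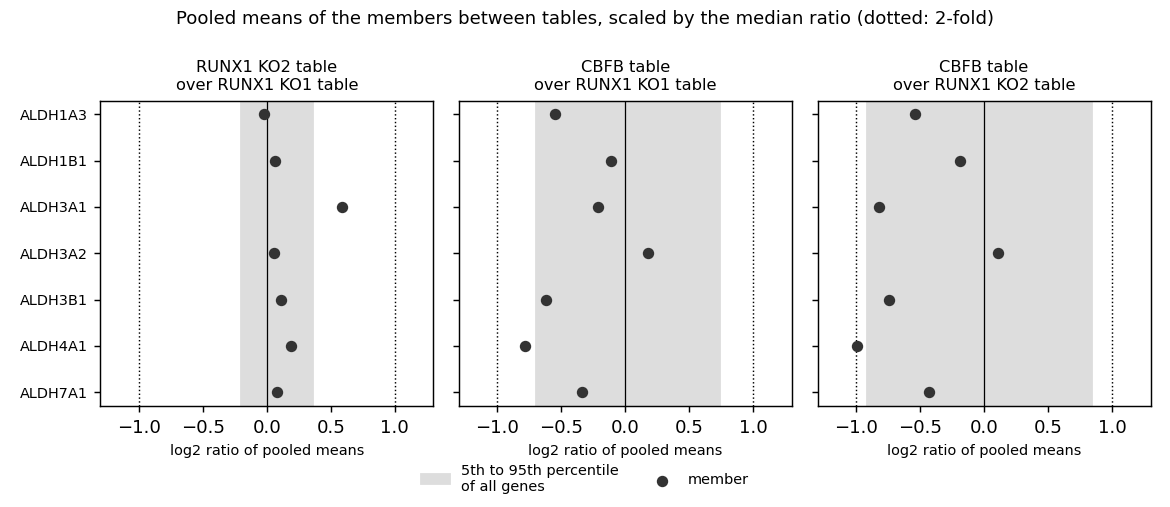
Log2 ratio of scaled pooled means between tables (x axis) for the 7 members with a mean of at least 10 in every table (y axis), without error bars. The grey band holds the 5th to 95th percentile of all genes and dotted lines mark 2-fold. ALDH3A1 lies outside the band in the RUNX1 pair (0.59), ALDH4A1 lies below it in both comparisons of the CBFB table (-0.79 and -0.99), and no point passes a dotted line.

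After scaling, which puts as many of the genes compared below 0 as above it, the CBFB table was lower than both RUNX1 tables for 6 of 7 members. That count depends on the scaling. Without it ALDH1B1 was higher in the CBFB table (log2 ratios of 0.11 over KO1 and 0.15 over KO2) and ALDH3A1 was not lower than in KO1 (0.01). In these comparisons the experiment, its WT and the gene knocked out cannot be told apart. ALDH4A1 was the lowest, with a log2 ratio of -0.79 against the KO1 table and -0.99 against the KO2 table. ALDH3B1 had -0.62 and -0.74, ALDH1A3 -0.55 and -0.54, ALDH7A1 -0.34 and -0.43, and ALDH1B1 -0.12 and -0.19. ALDH3A1 was closer to level against KO1 (-0.21) than against KO2 (-0.82). ALDH3A2 was the one member higher in the CBFB table after scaling, at 0.17 and 0.11.

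None of these passed 2-fold (0 of 7 in each comparison), where 4.64% of 13370 genes did for CBFB over KO1 and 6.81% of 12956 genes for CBFB over KO2. The members' median log2 ratio was -0.34 over KO1 and -0.54 over KO2, where the scaling sets the median of all genes to 0. For the 6 other family genes with means of at least 10, the medians were 0.02 and 0.05, with 3 above and 3 below 0 each time. The members were chosen from earlier results of these same data and these 6 were not, so the contrast is a description and was not tested. ALDH3B2 was outside the filter with 5.88 normalized counts in the CBFB table, and its log2 ratios were -1.28 and -1.08.

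Levels of cell type markers also differed between the tables. Among the basal markers, 2 of 7 were at least 2-fold lower and 1 was at least 2-fold higher in the CBFB table than in the KO1 table, while against the KO2 table, of 6 markers compared, 1 was lower and 1 higher. Over all genes compared, 4.64% (CBFB over KO1) and 6.81% (CBFB over KO2) were at least 2-fold apart. The basal list summed to 6433 (CBFB table), 9979 (KO1) and 11044 (KO2) per 1000000 normalized counts. The KO2 sum covers 6 genes and the others 7, since KRT14 was not listed in the KO2 table. KRT17 held 521, 2654 and 4154 of these sums. KRT5, KRT14 and CDH1 were also lowest in the CBFB table, while TP63, EGFR and ITGB4 were highest there. The luminal, fibroblast and immune lists each summed to under 20 per 1000000 in each table, and their part in the members' ratios, like that of the basal markers, was not tested.

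Retinoic acid made by ALDH1A enzymes is carried by binding proteins to its receptors and broken down by CYP26 enzymes. Of 19 genes of this pathway, 12 had means of at least 10 in every table. The 4 with the highest means were FABP5, which carries fatty acids and retinoic acid (2405, 3420 and 3642 in the CBFB, KO1 and KO2 tables), the receptor RXRA (2220, 1991 and 1878), the retinal reductase RDH11 (1865, 1710 and 1572) and the receptor RARG (1502, 1258 and 1235). Of these FABP5 was the furthest from level, with log2 ratios of -0.74 for CBFB over KO1 and -0.94 for CBFB over KO2. The median of the 12 was -0.09 and -0.10, beside -0.34 and -0.54 for the members, which were chosen from earlier results of these data.

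Of the 12 genes, 2 were at least 2-fold lower in the CBFB table than in KO1's and 3 than in KO2's, and none was higher. Over all genes compared, 4.64% (CBFB over KO1) and 6.81% (CBFB over KO2) were at least 2-fold apart in either direction. The pathway genes that passed are named here after their values were seen. CRABP2, which delivers retinoic acid to its receptors, had means of 77.2, 273 and 403 (log2 ratios of -2.05 and -2.72), and STRA6, the retinol uptake receptor, had 37.6, 81.6 and 86.6 (-1.34 and -1.54). DHRS3, which reduces retinal back to retinol, had 553, 693 and 904, and passed 2-fold only against KO2 (-0.55 and -1.05).

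Other enzymes that clear aldehydes were compared too. Of 17 such genes 7 could be compared for CBFB over KO1 and 6 for CBFB over KO2. Means of at least 10 were held by 7 of them in the CBFB table, 10 in KO1's and 9 in KO2's. Those that reached 10 in only one table of a pair were not listed in the other, so they were not compared. None of the genes compared was 2-fold apart, where 4.64% and 6.81% of all genes were. The highest were ADH5, which acts on formaldehyde bound to glutathione (3513, 2971 and 2873 in the CBFB, KO1 and KO2 tables), and the reductases AKR1B1 (2848, 2707 and 2968), CBR1 (1313, 1525 and 1630) and AKR1A1 (1018, 1117 and 1243). The median log2 ratio was -0.36 for CBFB over KO1 and -0.51 for CBFB over KO2, beside -0.34 and -0.54 for the members.

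**Figure D3:**
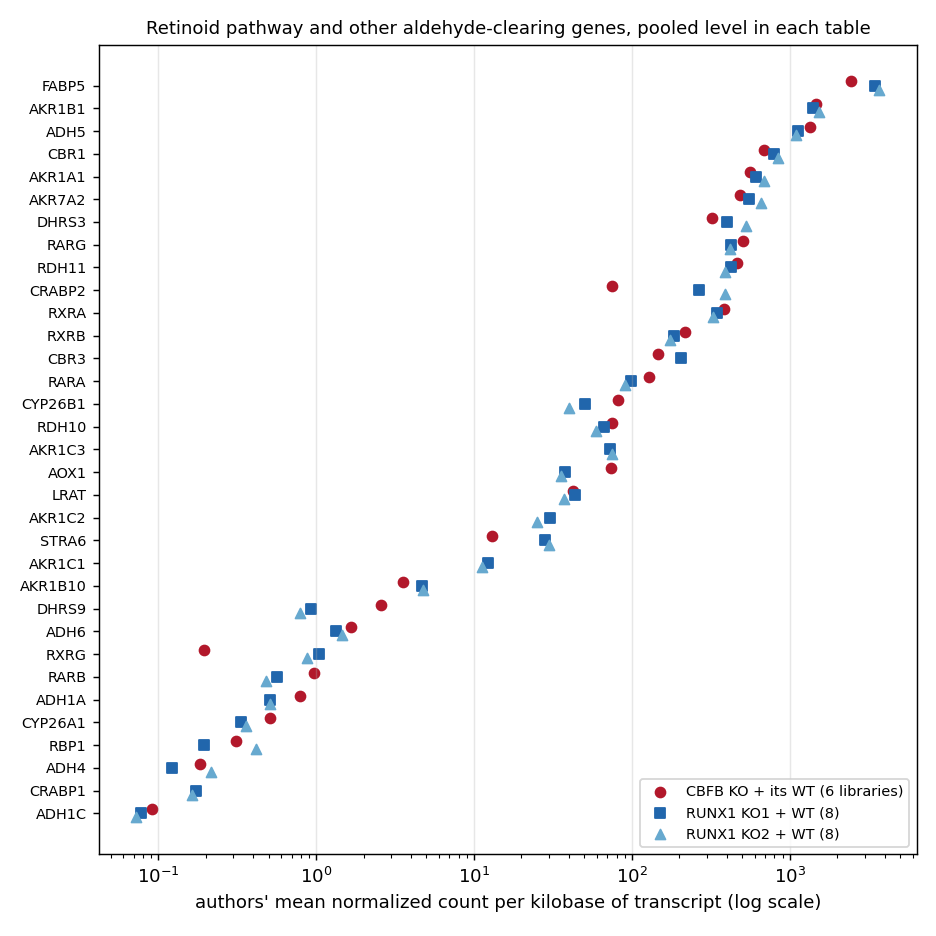
Authors' mean normalized count per kilobase of transcript (x axis, log scale) of the retinoid pathway and other aldehyde-clearing genes (y axis), 1 point per table in which a gene is listed, pooled over KO and WT libraries with no error. CRABP2 shows the widest gap among the genes whose mean reached 10 in every table, with a log2 ratio of -2.72 for CBFB over KO2.

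RefSeq promoters (GRCh38.p14, 250 bases before to 50 after the gene start) were on hand for 7 of the 10 members, all but ALDH2, ALDH3A1 and ALDH3B2. The letters TGTGGT and TGCGGT, which RUNX proteins are known to bind, were searched on both strands. None of the 7 windows held either, against 19.4% of 27305 promoters (13.1% for the first and 7.11% for the second). The windows differed widely in base composition. ALDH1A3's was 81.7% G and C, higher than 98.6% of promoters, and ALDH1A1's was 40.3%, against a median of 58.3%. The ratio of observed to expected CpG ran from 0.133 for ALDH3B1 to 1.01 for ALDH4A1, with a median of 0.580 over all promoters. This search was chosen after the levels were seen.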

How the data were processed

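RNA-seq libraries of MCF10A cells were prepared by the authors. The labels name a TruSeq mRNA kit and the study's methods ribosomal RNA removal. The submitters' processing notes name Trimmomatic, STAR, DESeq2 and hg19, with no versions or order. Each of the 3 deposited tables lists, per gene, DESeq2's mean normalized count over KO and WT libraries (a signal, normalized by the authors within each table). The other 5 columns of each table hold the authors' own comparisons (fold change, its error, a test score, p-value and adjusted p-value) and were not used. Per-sample values were not analysed here, so no SD or test is given.

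Groups were taken from the labels. The members and lists were chosen with earlier results of these data known. All 10 members were named, the other family genes by counts and values, and at most the 4 highest genes of each other list, with CRABP2, STRA6 and DHRS3 added after their values were seen. Means were expressed per 1000000 of the table's sum and per kilobase of the longest transcript, or of the longest coding sequence (GENCODE 29, matched to 97.2% to 97.4% of genes). Pairs of tables were scaled by the median ratio over genes with means of at least 10 in both, and 2-fold was the threshold. Means of genes with few reads were decoded into whole reads from the single-read values, of which as many were found as libraries (6, 8 and 8). Counting errors take normalized counts as reads and cover counting error only. The alternatives were sum scaling, no scaling, no filter, a pseudocount of 1 and a fold of 1.5. Promoters and gene positions on chromosomes came from RefSeq GRCh38.p14. The scaling was tested on simulated tables whose clones shared WT libraries, as the KO1 and KO2 tables do. Comparisons with the CBFB table, which has its own WT, were not simulated. Python 3.11.15, pandas 2.3.3, numpy 2.4.6, scipy 1.17.1 and matplotlib 3.10.9 were used.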

Additional observations from a re-analysis of the deposited data

How the results depend on the processing

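Sum scaling, no scaling and a pseudocount of 1 left 0 members at least 2-fold apart in all 3 comparisons. A fold of 1.5 gave 1 member for KO2 over KO1 (ALDH3A1), 2 for CBFB over KO1 (ALDH3B1 and ALDH4A1) and 3 for CBFB over KO2 (these and ALDH3A1), where 0.937%, 15.7% and 26.1% of all genes passed. Without the filter on low means, 0, 1 (ALDH3B2) and 2 members (ALDH3B2 and ALDH1A1, which rests on 1 read on each side) passed 2-fold, against 3.06%, 13.0% and 15.5% of all genes. With the coding length, ALDH1A3 held 32.1%, 39.4% and 37.7% of the members' level in the CBFB, KO1 and KO2 tables. Leaving the 10 highest genes out of the sums kept 7 members at 1 or more per 1000000 in each table. Most genes listed reached that level too. ALDH6A1, at 3.07, 3.33 and 3.39 per 1000000 of all genes, was above only 37.5%, 38.0% and 38.5% of them in the CBFB, KO1 and KO2 tables. The count therefore does not set the members apart. The share held by ALDH1A3 and the number at 1 or more per 1000000, though not the alternatives themselves, were chosen as summaries after the data were seen.

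Of 63 recomputed member ratios 7 changed sign, and the largest main log2 ratio among them was 0.21 in size. Without scaling, ALDH1B1, ALDH3A2 and ALDH7A1 became -0.04, -0.05 and -0.02 for KO2 over KO1, ALDH1B1 and ALDH3A1 became 0.11 and 0.01 for CBFB over KO1, and ALDH1B1 became 0.15 for CBFB over KO2. With sum scaling ALDH1A3 became 0.0080 for KO2 over KO1.

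No paired analysis was possible because the values used are means pooled over KO and WT libraries, and per-sample values were not analysed here. For the same reason leaving out replicates was not run. Depth limits ALDH1A1, ALDH2 and ALDH1A2, which rest on 1 to 5 reads per table, and the spread between replicates limits every ratio.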
